A study of Homo sapiens with 58 samples.

Results

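Chromatin accessibility was followed at the loci of 9 genes of the epithelial to mesenchymal transition in cranial neural crest cells (CNCCs) while the transcription factor SOX9 was depleted. The genes were SNAI1, SNAI2, ZEB1 and ZEB2, which encode repressor transcription factors, and the cadherin genes CDH1, CDH2, CDH6, CDH7 and CDH11. A regulatory element (RE), a region of reproducibly open chromatin, was taken as a member when its midpoint lay in the body of a gene or within 100 kb of one of its GENCODE release 44 start sites. This rule took 184 of the 151457 REs counted by ATAC-seq, which are 36 at SNAI1, 14 at SNAI2, 9 at ZEB1, 32 at ZEB2, 24 at CDH1, 16 at CDH2, 20 at CDH6, 12 at CDH7 and 21 at CDH11. The rule used position alone and no measured value.

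H9, an established line of human embryonic stem cells, was differentiated in vitro to CNCCs, which were used at passage 4. In SOX9-tagged cells both alleles of SOX9 carry FKBP12-F36V, mNeonGreen and V5 at the carboxy terminus of the protein, so that the small molecule dTAGV-1 directs SOX9 to degradation, and these cells come from the edited clones S9CC13 and S9CC47. Wild-type (WT) cells carry no tag. At 48 h, SOX9-tagged cells received 0, 0.5, 1.6, 5, 16 or 500 nM dTAGV-1 (7 samples each, SOX9 at 100, 77.9, 51.7, 25.8, 8.14 and 0.95% by the labels), and WT cells received 0 or 500 nM (2 samples each). In a time course, SOX9-tagged and WT cells received vehicle for 24 h, 500 nM for the last 3 h, or 500 nM for 24 h (2 samples each, differentiations R4 and R5). Samples are named by clone and differentiation batch, so that same-named samples pair across groups. For S9CC13_R14 the concentration labels of the 0 and 0.5 nM samples go against the titles, which were used. The tagged R5 samples of the time course are titled S9CC13 but their counts are headed S9CC47, so their clone is uncertain, and clone entered no test there. Totals ran from 22.91 M to 81.04 M counts per sample, and no 2 samples of a group agreed within sampling noise.

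At the start of migration, neural crest cells leave the neural epithelium. SNAI and ZEB proteins bind E-box sequences and repress CDH1, the gene of E-cadherin, which holds epithelial cells together. CDH2 (N-cadherin) marks neural and mesenchymal cells, and CDH6, CDH7 and CDH11 are cadherins known from premigratory, migrating or mesenchymal crest. SOX9 binds DNA through its HMG domain at a short AT-rich core, alone or as a dimer on facing cores.

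The label of the cells was compared with marker promoters fixed as a list. All 9 crest marker genes had a promoter RE, and their summed accessibility at 0 nM ran from 397 to 542 CPM (counts scaled to a common library total) per kb. The 3 of 5 epithelial markers with a promoter RE summed to between 7.71 and 13.6 CPM per kb, and CDH1, one of the 5, had no RE within 1000 bp of its start. The 4 neural markers summed to between 53.3 and 72.7 CPM per kb and 2 of 4 pluripotency markers to between 37.0 and 50.0, with the NEUROD1 and L1TD1 promoters at percentiles 93.9 and 94.2 of all REs, so open promoters were not limited to crest genes. A sum grows with the number of promoters in it, so sums of different lists do not compare directly. Singly, crest promoters lay at percentiles 87.6 (PRRX1) to 99.7 (NR2F1) and epithelial ones at 23.4 (GRHL2) to 46.4 (ESRP1). The other neural and pluripotency promoters lay at 49.1 (SOX1) to 77.2 (PAX6). At 500 nM the neural sums ran from 53.9 to 64.9 and the pluripotency sums from 40.0 to 53.5, overlapping 0 nM, and their part in the results was not tested. At 500 nM the crest and epithelial sums ran from 422 to 553 and from 8.29 to 12.3 CPM per kb, and the groups overlapped for both of these lists. The assay reads bulk samples, in which fewer cells with an open RE and less opening per cell cannot be told apart.

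The sequences of the REs that fell most at 4 of the loci are printed first, because they carry large changes described below. Each run is the middle 300 bases of the RE on the plus strand of hg38, with the SOX core ACAAT (or ATTGT on the other strand) and the E-box CACCTG (or CAGGTG) in capitals. Positions in kb are distances of the RE midpoint from the canonical start, negative upstream.
ZEB2 −61.8 kb, chr2:144581732-144582031: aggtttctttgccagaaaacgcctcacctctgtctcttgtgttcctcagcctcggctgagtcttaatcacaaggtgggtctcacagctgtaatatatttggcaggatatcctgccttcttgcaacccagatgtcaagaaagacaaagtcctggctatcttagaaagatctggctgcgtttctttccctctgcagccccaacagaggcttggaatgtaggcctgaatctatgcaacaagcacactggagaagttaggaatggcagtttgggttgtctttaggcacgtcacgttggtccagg
CDH1 −21.6 kb, chr16:68715577-68715876: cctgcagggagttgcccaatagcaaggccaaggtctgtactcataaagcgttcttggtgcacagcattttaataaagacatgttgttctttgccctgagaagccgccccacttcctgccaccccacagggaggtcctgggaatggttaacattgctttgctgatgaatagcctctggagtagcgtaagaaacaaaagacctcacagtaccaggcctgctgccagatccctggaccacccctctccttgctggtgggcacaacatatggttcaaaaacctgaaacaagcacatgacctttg
CDH6 +198.0 kb, chr5:31391573-31391872: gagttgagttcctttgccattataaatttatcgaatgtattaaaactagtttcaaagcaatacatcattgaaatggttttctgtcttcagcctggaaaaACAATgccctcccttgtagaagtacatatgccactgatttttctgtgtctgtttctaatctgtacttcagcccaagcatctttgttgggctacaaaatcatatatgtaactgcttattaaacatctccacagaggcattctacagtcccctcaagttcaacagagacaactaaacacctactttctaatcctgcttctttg
CDH11 +128.4 kb, chr16:64993560-64993859: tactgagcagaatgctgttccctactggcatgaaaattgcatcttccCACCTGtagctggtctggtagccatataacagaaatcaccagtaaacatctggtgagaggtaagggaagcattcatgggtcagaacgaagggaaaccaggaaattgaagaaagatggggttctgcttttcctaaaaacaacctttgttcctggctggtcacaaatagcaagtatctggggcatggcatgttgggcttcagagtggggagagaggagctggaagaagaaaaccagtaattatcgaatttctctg

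Only the exact letters given above were searched, so SOX9 sites spelled otherwise were neither marked nor counted, here or in the shares below. The paper matched SOX9 sites with a position weight matrix instead. Of these middle stretches, CDH6 +198.0 kb held 1 SOX core, CDH11 +128.4 kb held 1 E-box, and the others held neither spelling. Over the whole REs, CDH11 +128.4 kb held 3 SOX cores and CDH1 −21.6 kb held 1 core and 1 E-box. Neither spelling stood in ZEB2 −61.8 kb. A SOX core is common: 52.4% of all 123778 REs of the commonest width held one, as did 47.7% of the 153 members of that width and 44.8% of the 29 such members that fell. Of all 16608 REs of that width that fell at 500 nM, 58.6% held one, above the share of the 29 members. That difference was not tested. An E-box stood in 33.6% of all REs, 23.5% of members and 37.9% of members that fell. Among all REs that fell the share was 39.4%, so the members that fell lay near it. Facing cores, written as ACAAT, a gap of 2 to 6 bases and ATTGT, stood in 0.326% of all REs of that width and in 3 members. They stood in 0.837% of all REs of that width that fell. Both members printed here with facing cores in capitals were lower at 500 nM, and they were chosen after their values were seen.
SNAI1 +7.1 kb, chr20:49989817-49989856: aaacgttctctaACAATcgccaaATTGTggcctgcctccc
CDH6 +167.8 kb, chr5:31361570-31361607: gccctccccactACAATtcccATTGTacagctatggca

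The third RE with facing cores, SNAI2 −57.7 kb, stood at −0.0036 ± 0.11 (SE) on the log2 scale and was not called. By edgeR, SNAI1 +7.1 kb stood at −0.43 ± 0.08 (SE, adjusted p = 0.00011) and CDH6 +167.8 kb at −0.53 ± 0.11 (SE, adjusted p = 0.0010). A match describes letters in these windows and does not show binding.

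The first comparison asked how the loci respond to full depletion. At 500 nM and 48 h, 52 of the 184 REs passed the edgeR threshold (adjusted p under 0.05 over all REs), against 24.1% of all 151457 REs. Of these, 35 were lower and 17 higher, where 13.9% of all REs were lower and 10.2% higher. The median log2 fold change was −0.02 over the members and 0.02 over all REs, so the middle of the members lay near 0 and the changes sat in single REs. At 12 members the 7 values at 0 nM and the 7 at 500 nM did not overlap, and all 12 were called lower. Such separation was seen at 4.03% of all REs.

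**Figure D1:**
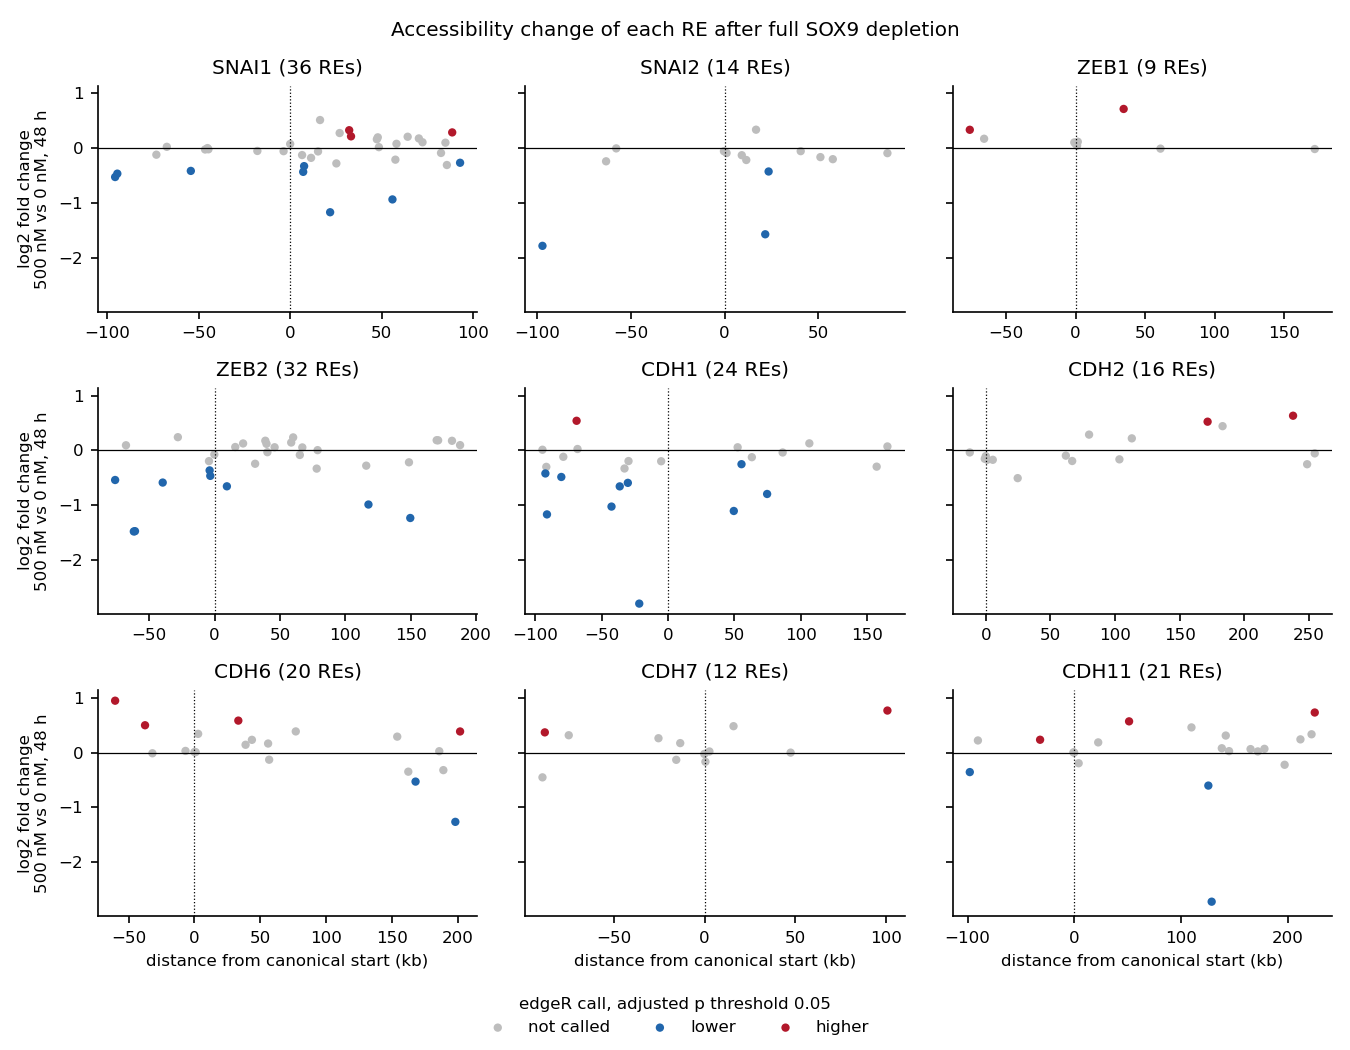
Each point is an RE of the named locus, placed by the distance of its midpoint from the canonical start in kb (horizontal) and its log2 fold change at 500 nM against 0 nM after 48 h (vertical), with blue for REs called lower, red for higher and grey for not called. ZEB2 and SNAI2 hold lower calls alone, ZEB1, CDH2 and CDH7 higher calls alone, and points at the start sites lie near 0.

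The direction of the calls was split by locus. The loci of ZEB2 (9 lower, 0 higher), SNAI2 (3 lower, 0 higher), CDH1 (10 lower, 1 higher) and SNAI1 (8 lower, 3 higher) held most of the REs that fell. SNAI1, ZEB2 and CDH1 also hold the most members. CDH6 (2 lower, 4 higher) and CDH11 (3 lower, 3 higher) were mixed, and ZEB1, CDH2 and CDH7 held 2 higher calls each and no lower call. The share called was 28.1% at ZEB2, 21.4% at SNAI2, 45.8% at CDH1 and 30.6% at SNAI1. It ran from 12.5% to 30.0% at the other loci, beside 24.1% of all REs. Among promoter REs, within 1000 bp of any annotated start, 6 of 35 members were called (17.1%, against 14.6% of all promoter REs). All 6 fell, and they lay at alternative or neighbouring starts rather than at a canonical one. These were ZEB2 +117.7 kb, 271 bp from an internal ZEB2 start (−0.99), a pair near the start of the noncoding gene LINC01412 upstream of ZEB2 (−0.46 and −0.36), a pair near CDH3 and CDH3-AS1 starts (−0.42 and −1.17) and CDH1 +74.7 kb, 87 bp from an internal CDH1 start (−0.79), all named after their values were seen. Among the rest 46 of 149 were called (30.9%, against 26.9%). The nearest coding start was that of the member gene itself for 22 of the 35 REs that fell and 14 of the 17 that rose, and for 143 of all 184, so an RE is named here by its window and was not assigned to a target.

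**Figure D2:**
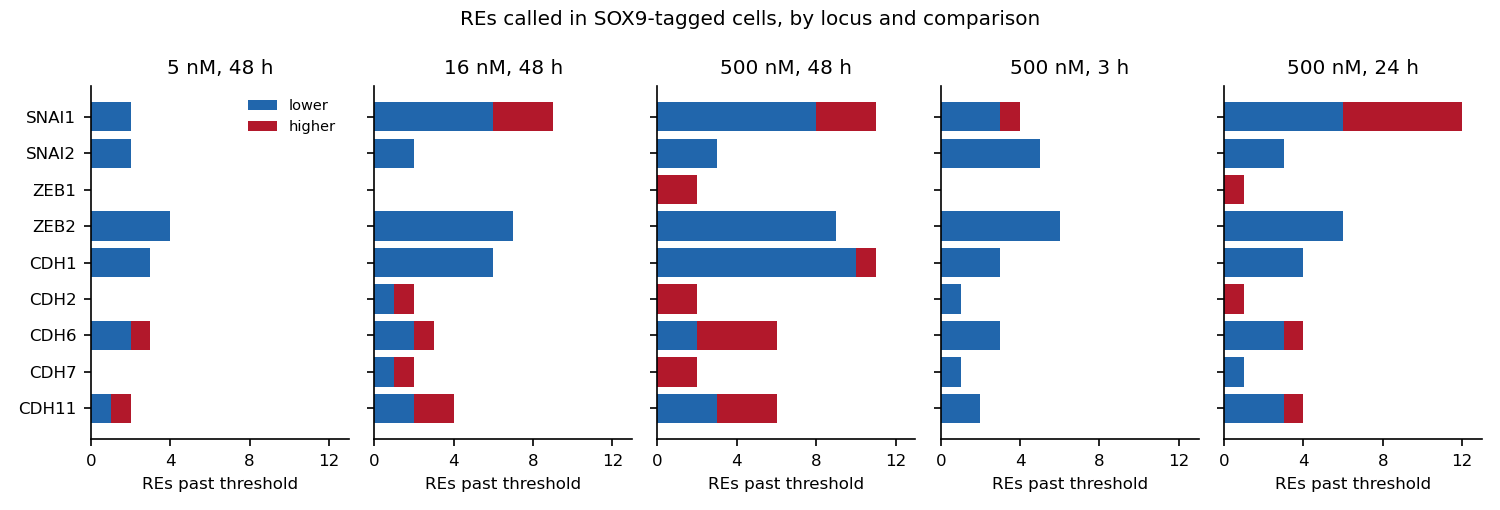
Bars count the REs of each locus past the edgeR threshold in SOX9-tagged cells (horizontal, number of REs), blue for lower and red for higher, in 5 comparisons named above the panels. At 5 nM the panel holds 14 lower and 2 higher REs, and at 500 nM and 48 h it holds 35 and 17.

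The promoters of the genes themselves were level across the dose series. Of the 9 genes, all but CDH1 had an RE within 1000 bp of the canonical start, and none of these 8 was called by edgeR at any concentration after 48 h. Their log2 fold changes at 500 nM ran from −0.10 ± 0.08 (SE) at CDH2 to 0.08 ± 0.11 at ZEB1. The SNAI2 promoter RE read from 69.37 to 101.3 CPM at 0 nM (median 91.22, n = 7) and from 75.46 to 93.24 CPM at 500 nM (median 84.55, n = 7). At the CDH2 promoter the values ran from 15.86 to 35.32 CPM (median 18.73) and from 12.72 to 28.38 CPM (median 20.73). The 0 nM and 500 nM groups overlapped at all 8 promoters.

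Some promoters differed widely between untreated samples. Without dTAGV-1, the CDH2 promoter RE read 30.7 to 35.3 CPM in differentiations R10, R13 and R14 and 15.9 to 18.7 CPM in the other 4 samples. At the CDH11 promoter the same samples read 54.6 to 58.8 CPM and 33.3 to 41.8 CPM. The same samples also stood apart at the SNAI1, ZEB1 and CDH7 promoters and overlapped at SNAI2, ZEB2 and CDH6. The share of all REs with such a split was not counted. These differentiations were picked out after the values were seen. Their samples are all of clone S9CC13, and the others are of S9CC47 but for S9CC13_R6. Clone and differentiation thus cannot be fully told apart here. The tests carry the differentiation batch as a covariate.

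**Figure D3:**
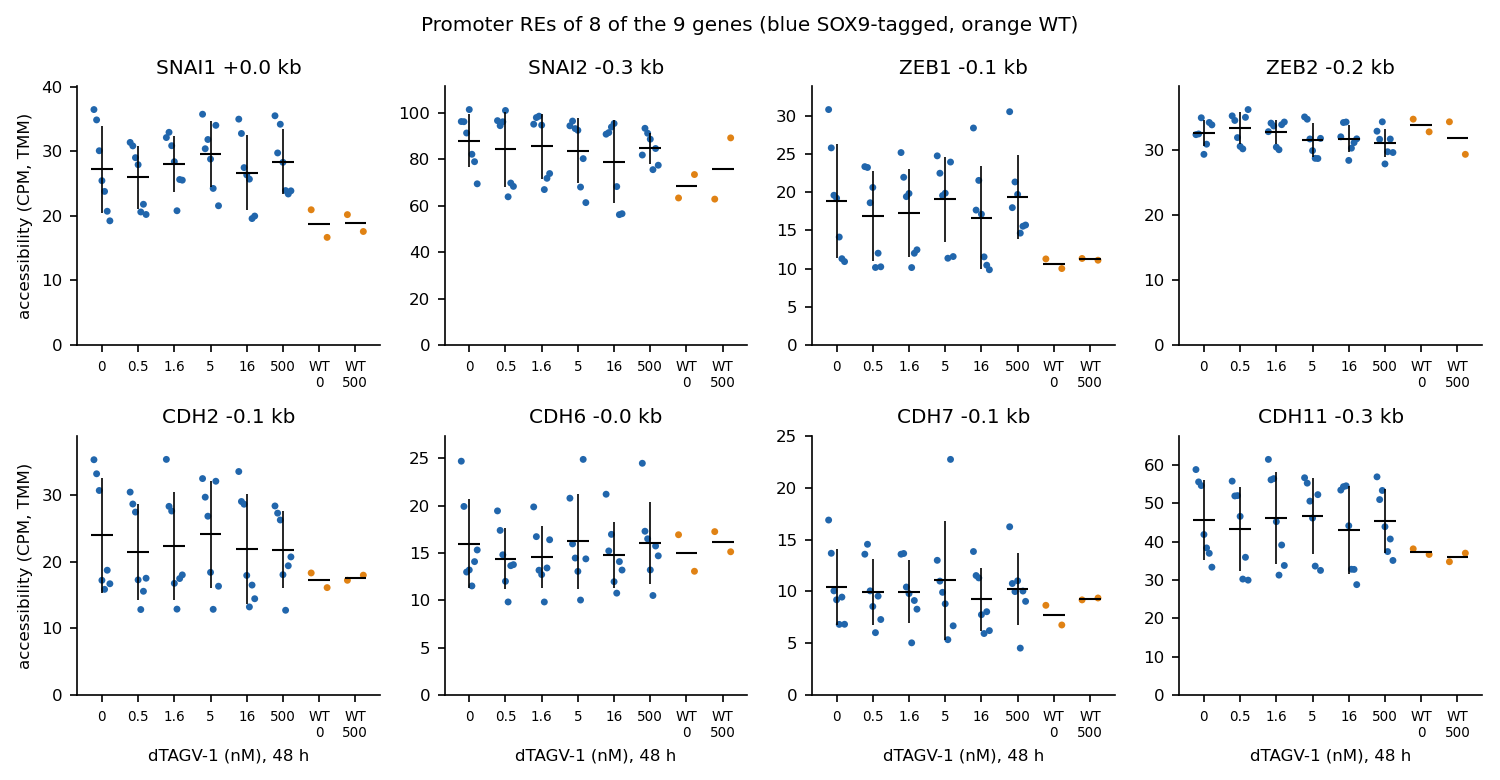
Accessibility in CPM (vertical, from 0) of the RE at the canonical start of 8 genes by dTAGV-1 concentration after 48 h (horizontal); points are samples, blue for SOX9-tagged (7 a group) and orange for WT (2 a group), horizontal bars are means and vertical bars SD for groups of 7. The means stay level from 0 to 500 nM, with 87.9 and 84.6 CPM at SNAI2, while the points of a group spread widely at CDH2, ZEB1 and CDH11.

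SNAI1 encodes Snail, a zinc finger repressor. The gene lies at chr20:49982980-49988886 on the plus strand, and its window also holds parts of SLC9A8, SPATA2 and RNF114. The RE that fell most was SNAI1 +21.8 kb (outside coding genes, nearest coding start SNAI1). It read from 2.63 to 4.94 CPM at 0 nM (median 3.34) and from 0.894 to 2.17 CPM at 500 nM (median 1.75), lower in 7 of 7 replicates and with no overlap. The log2 fold change was −1.17 ± 0.14 (SE, adjusted p = 7.9e-07), beside −0.79 ± 0.11 at 16 nM and −0.59 ± 0.11 at 5 nM. The other 7 REs called lower at this locus lay between −0.93 and −0.27.

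Further downstream, the neighbouring REs SNAI1 +32.2 kb and SNAI1 +33.2 kb rose slightly. SNAI1 +32.2 kb (chr20:50014888-50015388) read from 18.5 to 40.2 CPM at 0 nM (median 25.6) and from 26.2 to 45.2 CPM at 500 nM (median 33.4), overlapping groups in which 7 of 7 replicates were higher at 500 nM. Its log2 fold change was 0.33 ± 0.10 (SE, adjusted p = 0.019), and without replicate S9CC47_R8 it was 0.24 (adjusted p = 0.099). SNAI1 +33.2 kb (chr20:50015941-50016441) rose by 0.22 ± 0.06 (SE, adjusted p = 0.012) and lost the call without the same replicate (adjusted p = 0.070).

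SNAI1 +33.2 kb was also the 1 member called in WT cells, where 0.303% of all REs were called at 48 h. In WT cells it fell, from 45.0 and 45.9 CPM at 0 nM to 33.9 and 41.9 CPM at 500 nM, a change of −0.28 ± 0.06 on the log2 scale (SE, adjusted p = 0.013). The WT call was lost with DESeq2, without the batch term and in the fit pooled with the SOX9-tagged samples. The SOX9-tagged change minus the WT change was 0.51 ± 0.11 (SE, adjusted p = 0.0021), so the rise in tagged cells ran against the direction in cells without the tag.

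SNAI2 encodes Slug, the Snail family member commonly used as a marker of neural crest. Its gene lies at chr8:48917598-48921740 on the minus strand. SNAI2 −97.0 kb (chr8:49018164-49018664), an intergenic RE whose nearest coding start is PPDPFL, was among the most open REs counted, above 99.01% of all REs per kb at 0 nM. It read from 32.4 to 58.4 CPM at 0 nM (median 46.0) and from 9.81 to 16.2 CPM at 500 nM (median 12.7), and the groups were far apart. The log2 fold change was −1.78 ± 0.10 (SE, adjusted p = 3.3e-13), beside −1.31 ± 0.10 at 16 nM and −0.63 ± 0.07 at 5 nM.

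SNAI2 +21.7 kb (chr8:48899218-48900194), downstream of the gene, read from 5.31 to 14.7 CPM at 0 nM (median 9.01) and from 1.82 to 5.25 CPM at 500 nM (median 3.22). It was lower in 7 of 7 replicates without overlap, at −1.57 ± 0.15 (SE, adjusted p = 1.2e-08). The third call of the locus was −0.42 on the log2 scale. The promoter between these 2 distal REs was not called at 500 nM (log2 fold change −0.06 ± 0.06, adjusted p = 0.54), so strong falls on either side flanked a level promoter.

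ZEB1 and ZEB2 encode zinc finger and homeodomain repressors of CDH1. The ZEB2 locus (gene at chr2:144364364-144521057, minus strand) held 9 REs that fell and none that rose. ZEB2 −61.8 kb (chr2:144581632-144582132) read from 7.74 to 18.2 CPM at 0 nM (median 11.8) and from 2.34 to 9.22 CPM at 500 nM (median 4.20), lower in 7 of 7 replicates although 1 treated value reached the untreated range. The fitted log2 change was −1.48 ± 0.11 (SE, adjusted p = 7.0e-11). The adjacent RE ZEB2 −60.9 kb, chosen after its values were seen, had −1.47 ± 0.10 (SE) and did not overlap between groups.

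In an intron of ZEB2, ZEB2 +149.7 kb (chr2:144370179-144370679) was a low RE, from 0.841 to 3.14 CPM at 0 nM (median 1.68) and from 0.315 to 1.30 CPM at 500 nM (median 0.663). It was lower in 6 of 7 replicates, at −1.23 ± 0.23 (SE, adjusted p = 0.00022). At the ZEB1 locus (gene at chr10:31318495-31529814, plus strand) the intronic RE ZEB1 +34.6 kb (chr10:31353578-31354078) rose from a median of 0.863 CPM (0.562 to 1.08) to 1.49 CPM (0.970 to 1.70), higher in 7 of 7 replicates. The fitted log2 change was 0.72 ± 0.18 (SE, adjusted p = 0.0048). This RE is low too, and the ZEB1 locus held 2 calls at 500 nM and 0 at 16 nM and at 5 nM. By edgeR's test of tagged against WT effects, 1 RE of the ZEB1 locus passed at 48 h, 0 at 3 h and 0 at 24 h. At 500 nM and 48 h the 2 ZEB loci thus held calls of opposite direction, and the difference between the loci was not tested.

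CDH1 lies at chr16:68737292-68835537 on the plus strand, next to CDH3, the gene of P-cadherin. The locus had the highest share of calls, 11 of 24 REs (45.8%), and the lowest median log2 fold change, −0.27. CDH1 −21.6 kb (chr16:68715477-68715977) fell more than any other member. It read from 4.01 to 6.46 CPM at 0 nM (median 6.12) and from 0.412 to 1.20 CPM at 500 nM (median 0.901), in groups far apart. The log2 fold change was −2.79 ± 0.17 (SE, adjusted p = 3.4e-12), beside −2.20 ± 0.17 at 16 nM and −1.41 ± 0.13 at 5 nM.

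This RE lies within the CDH3 gene, and its nearest coding start is that of CDH3. Of the 24 members at CDH1, 14 overlap CDH3 and have its start as the nearest coding start, and 7 of these 14 were called lower. One of them, CDH1 −92.3 kb, chosen after its values were seen, lies 48 bp from a CDH3 start and was lower by edgeR at −0.42 ± 0.10 (SE, adjusted p = 0.0035). Which of the neighbouring cadherin genes these REs act on was not measured here. Inside CDH1 itself, 3 REs fell, at −1.1 (+49.6 kb, intron), −0.79 (+74.7 kb, over a UTR exon) and −0.25 (+55.4 kb, intron), all chosen after their values were seen.

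The single RE that rose in the window, CDH1 −68.8 kb (chr16:68668250-68668750, within CDH3), was barely open. It read from 0.604 to 1.099 CPM at 0 nM (median 0.820) and from 0.800 to 1.56 CPM at 500 nM (median 1.23), higher in 6 of 7 replicates. Its log2 fold change of 0.54 ± 0.18 (SE, adjusted p = 0.032) lost the call without S9CC13_R10 (adjusted p = 0.075), S9CC13_R13 (0.063), S9CC47_R5 (0.061) or S9CC47_R8 (0.13), each left out alone.

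CDH2, at chr18:27932879-28177946 on the minus strand, had no RE called lower at 500 nM and 48 h. The intronic RE CDH2 +237.9 kb (chr18:27938986-27939486) rose from a median of 0.999 CPM (0.655 to 1.36) to 1.52 CPM (1.08 to 2.11), higher in 7 of 7 replicates (0.63 ± 0.16, SE, adjusted p = 0.0050). The other call at this locus was 0.52. At 16 nM the locus held 1 lower and 1 higher call and at 3 h 1 lower call, and no RE of the locus passed edgeR's test of tagged against WT effects (2 at an unadjusted p under 0.05 at 3 h, 2 at 24 h and 3 at 48 h). Its share of calls at 500 nM, 12.5%, was below the 24.1% of all REs.

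CDH6 encodes a type II cadherin of the neural folds and premigratory crest, at chr5:31193686-31329146 on the plus strand. CDH6 +198.0 kb (chr5:31391473-31391973), intergenic with DROSHA as its nearest coding start, read from 0.440 to 1.71 CPM at 0 nM (median 1.42) and from 0.364 to 0.724 CPM at 500 nM (median 0.443). It was lower in 6 of 7 replicates, at −1.26 ± 0.22 (SE, adjusted p = 7.8e-05). In the other direction, CDH6 −60.2 kb (chr5:31132978-31133929) read from 0.815 to 6.02 CPM at 0 nM (median 1.73) and from 2.30 to 9.04 CPM at 500 nM (median 4.28). The groups overlapped widely, yet 7 of 7 replicates were higher at 500 nM, and the log2 fold change was 0.95 ± 0.13 (SE, adjusted p = 6.0e-06). Without the batch term the adjusted p was 0.33.

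CDH7 and CDH11 are type II cadherins of migrating crest and of mesenchyme. At CDH7 (chr18:65750252-65890337, plus strand) the intronic RE CDH7 +100.9 kb (chr18:65851674-65852174) was above only 0.476% of all REs per kb at 0 nM. It rose from a median of 0.588 CPM (0.263 to 1.09) to 0.921 CPM (0.759 to 1.25), at 0.77 ± 0.22 (SE, adjusted p = 0.011), and lost the call without S9CC47_R8 (adjusted p = 0.064).

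CDH11 (chr16:64943753-65126112, minus strand) held the second largest fall. CDH11 +128.4 kb (chr16:64993460-64993960), in an intron, read from 1.26 to 6.15 CPM at 0 nM (median 2.97) and from 0.0807 to 1.05 CPM at 500 nM (median 0.412), lower in 7 of 7 replicates and without overlap. The fitted log2 change was −2.72 ± 0.17 (SE, adjusted p = 9.1e-12), beside −1.93 ± 0.20 at 16 nM and −1.103 ± 0.13 at 5 nM. CDH11 +224.9 kb (chr16:64896946-64897446), beyond the 3' end of the gene, rose from a median of 10.6 CPM (6.82 to 13.5) to 18.2 CPM (13.3 to 20.2). It was higher in 7 of 7 replicates, at 0.73 ± 0.08 (SE, adjusted p = 1.4e-07), so the same locus held a strong fall and a strong rise while its promoter read 0.00 ± 0.05.

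The dose series asked at which SOX9 level the REs move. In this paragraph percentages in brackets are shares of all 151457 REs. Of the 184 members, 19.0% were called at 16 nM and 8.7% at 5 nM. At 16 nM, where SOX9 is at 8.14%, 35 members were called (16.2% of all REs), 27 lower (9.12%) and 8 higher (7.12%). With replicate as a block in place of batch this count was 57, with 40 lower and 17 higher. At 5 nM, where SOX9 is at 25.8%, 16 members were called (5.32%), 14 lower (4.24%) and 2 higher (1.08%). At 1.6 nM, where SOX9 is at 51.7%, edgeR called 0 members (13 at an unadjusted p under 0.05), against 0.0383% of all REs. At 0.5 nM it called 0 members (5 at an unadjusted p under 0.05) and 0% of all REs, as did DESeq2 among the members.

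The single member that passed in any fit at 1.6 nM was CDH1 −21.6 kb. Its log2 fold change there was −0.55 ± 0.13 (SE, adjusted p = 0.15), and it passed with replicate as a block (adjusted p = 0.0016) and with DESeq2 (adjusted p = 0.018). Its mean level went from 5.74 ± 0.915 CPM (SD, n = 7) at 0 nM to 4.95 ± 1.43, 3.97 ± 1.11, 2.21 ± 0.764, 1.34 ± 0.729 and 0.847 ± 0.270 CPM at 0.5, 1.6, 5, 16 and 500 nM. The range at 1.6 nM overlapped that at 0 nM. For the 35 REs that fell at 500 nM, the medians of the log2 fold change from 0.5 to 500 nM were 0.001, −0.109, −0.414, −0.512 and −0.601, values that share their 0 nM samples. For the 17 that rose, the medians were 0.003, 0.09, 0.135, 0.249 and 0.524 in the same order.

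**Figure D4:**
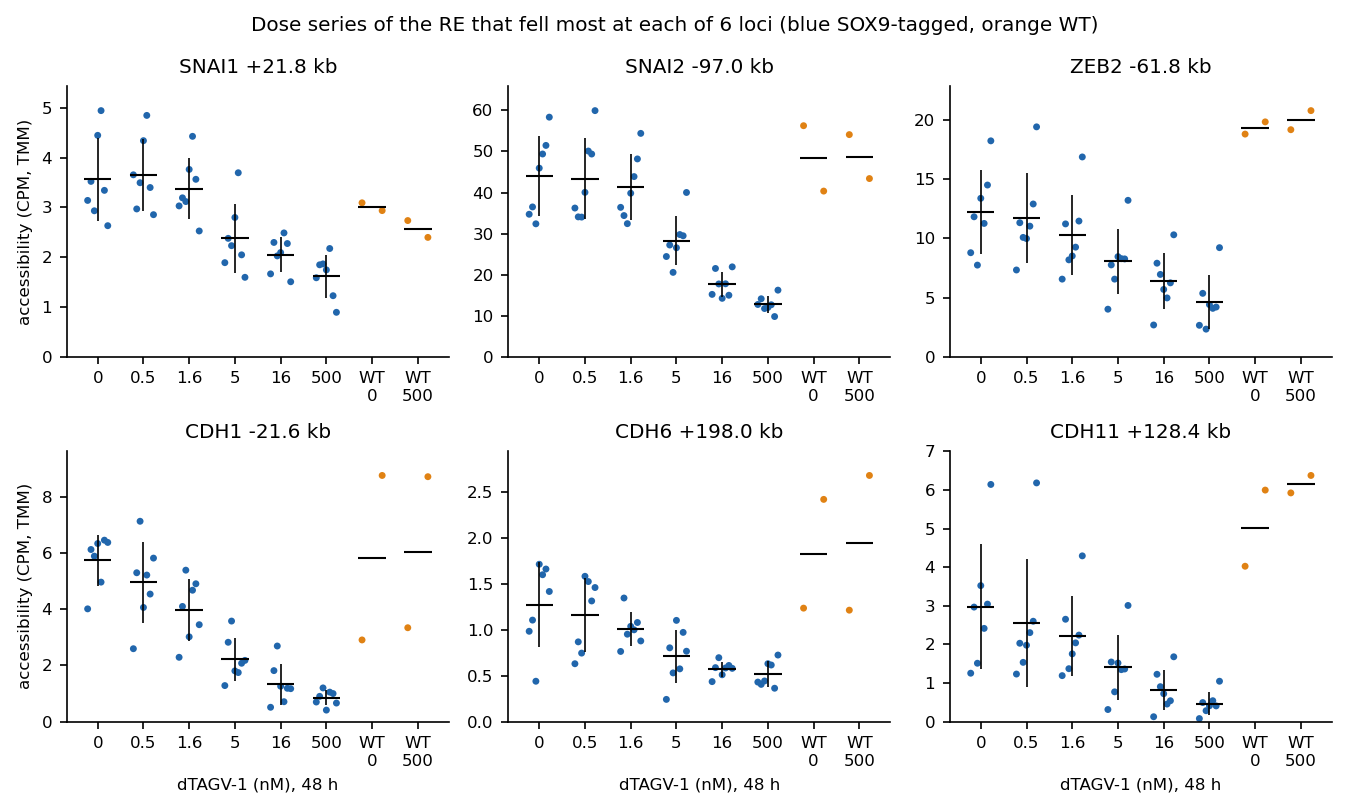
Accessibility in CPM (vertical, from 0) of the RE that fell most at 6 loci by dTAGV-1 concentration after 48 h (horizontal); points are samples, blue for SOX9-tagged (7 a group) and orange for WT (2 a group), horizontal bars are means and vertical bars SD for groups of 7. Means are close at 0 and 0.5 nM and lowest at 500 nM in each panel, such as 44.1 and 12.8 CPM at SNAI2 −97.0 kb, while both WT groups stay at or above the tagged mean at 16 nM.

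The question of the time course was how early the REs move. In this paragraph percentages in brackets are shares of all 151457 REs. Of the 184 members, 13.6% were called at 3 h and 19.6% at 24 h. After 3 h of 500 nM, 25 members were called (8.34% of all REs), 24 lower (7.43%) and 1 higher (0.912%). Without the R4 vehicle sample 13 were called. The lower calls lay at ZEB2 (6), SNAI2 (5), SNAI1, CDH1 and CDH6 (3 each), CDH11 (2), and CDH2 and CDH7 (1 each). After 24 h, 36 were called (14.6%), 26 lower (9.93%) and 10 higher (4.7%), and 22 without the R4 vehicle sample. Both comparisons share their vehicle samples. Of the 24 REs lower at 3 h, 17 were also lower at 48 h in the dose samples, which is 70.8% of the former and 48.6% of the 35. Over all REs these shares were 81.2% and 43.3%. The samples are separate, but differentiation R5 enters both series.

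The REs with the largest falls at 3 h were CDH1 −21.6 kb, ZEB2 +149.7 kb, CDH6 +198.0 kb, SNAI2 +21.7 kb and SNAI2 −97.0 kb. CDH1 −21.6 kb read 12.87 and 9.72 CPM with vehicle, 1.44 and 1.59 CPM at 3 h and 1.16 and 1.59 CPM at 24 h, so most of its fall was in place by 3 h. In WT cells it read 8.34 and 10.2 CPM with vehicle and 9.06 and 9.13 CPM at 3 h. The log2 fold change at 3 h was −2.94 ± 0.19 (SE, adjusted p = 4.4e-09) in tagged cells.

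ZEB2 +149.7 kb read 2.66 and 2.94 CPM with vehicle and 0.688 and 0.789 CPM at 3 h (log2 fold change −1.99 ± 0.24, adjusted p = 6.9e-06). CDH6 +198.0 kb read 1.52 and 1.11 CPM with vehicle and 0.289 and 0.571 CPM at 3 h (−1.67 ± 0.36, adjusted p = 0.0039). SNAI2 +21.7 kb read 13.6 and 11.5 CPM with vehicle and 4.46 and 4.40 CPM at 3 h (−1.57 ± 0.16, adjusted p = 9.0e-07). In each of these the vehicle and treated samples were apart.

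SNAI2 −97.0 kb read 70.3 and 37.0 CPM with vehicle, 28.7 and 16.1 CPM at 3 h and 14.8 and 12.4 CPM at 24 h. The log2 fold changes were −1.31 ± 0.11 at 3 h and −1.98 ± 0.11 at 24 h, and each treated sample was below the vehicle sample of its own differentiation. CDH11 +128.4 kb likewise read 6.501 and 2.49 CPM with vehicle, 2.69 and 1.28 CPM at 3 h and 1.597 and 0.590 CPM at 24 h (−1.20 ± 0.19 and −2.09 ± 0.20), where the R4 sample at 3 h was above the R5 vehicle sample. SNAI1 +21.8 kb fell by 1.25 (SE 0.18) at 3 h and by 1.61 (SE 0.18) at 24 h, and ZEB2 −61.8 kb by 0.65 (SE 0.11) and 1.17 (SE 0.12).

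The REs that rose at 48 h had little change at 3 h. Among the 17, 1 was called at 3 h and 7 at 24 h, and the median log2 fold change was 0.08 at 3 h and 0.305 at 24 h. CDH6 −60.2 kb read 3.10 and 3.82 CPM with vehicle, 3.35 and 4.38 CPM at 3 h and 6.25 and 6.69 CPM at 24 h (0.10 ± 0.16 at 3 h and 0.85 ± 0.16 at 24 h). CDH11 +224.9 kb read 12.8 and 14.9 CPM, 14.6 and 17.0 CPM, and 21.7 and 20.7 CPM in the same order (0.13 ± 0.11 and 0.57 ± 0.10). The RE higher at 3 h was SNAI1 +33.2 kb, at 34.6 and 38.8 CPM with vehicle and 47.4 and 46.5 CPM at 3 h (0.29 ± 0.07, adjusted p = 0.012). The difference between 3 and 24 h itself was not tested.

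At 3 h, 3 of the 35 promoter REs were called, all lower (8.57%, against 3.85% of all promoter REs), and the SNAI2 promoter was the one of them at a canonical start. It read 62.0 and 51.1 CPM with vehicle, 48.0 and 44.3 CPM at 3 h and 59.4 and 48.9 CPM at 24 h. Its log2 fold change was −0.35 ± 0.07 at 3 h (SE, adjusted p = 0.0019) and −0.12 ± 0.07 at 24 h (adjusted p = 0.29). In WT cells it went from 65.1 and 63.1 CPM to 62.9 and 50.6 CPM at 3 h, and the tagged change minus the WT change was −0.19 ± 0.13 (adjusted p = 0.65), so a difference from WT was not shown.

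**Figure D5:**
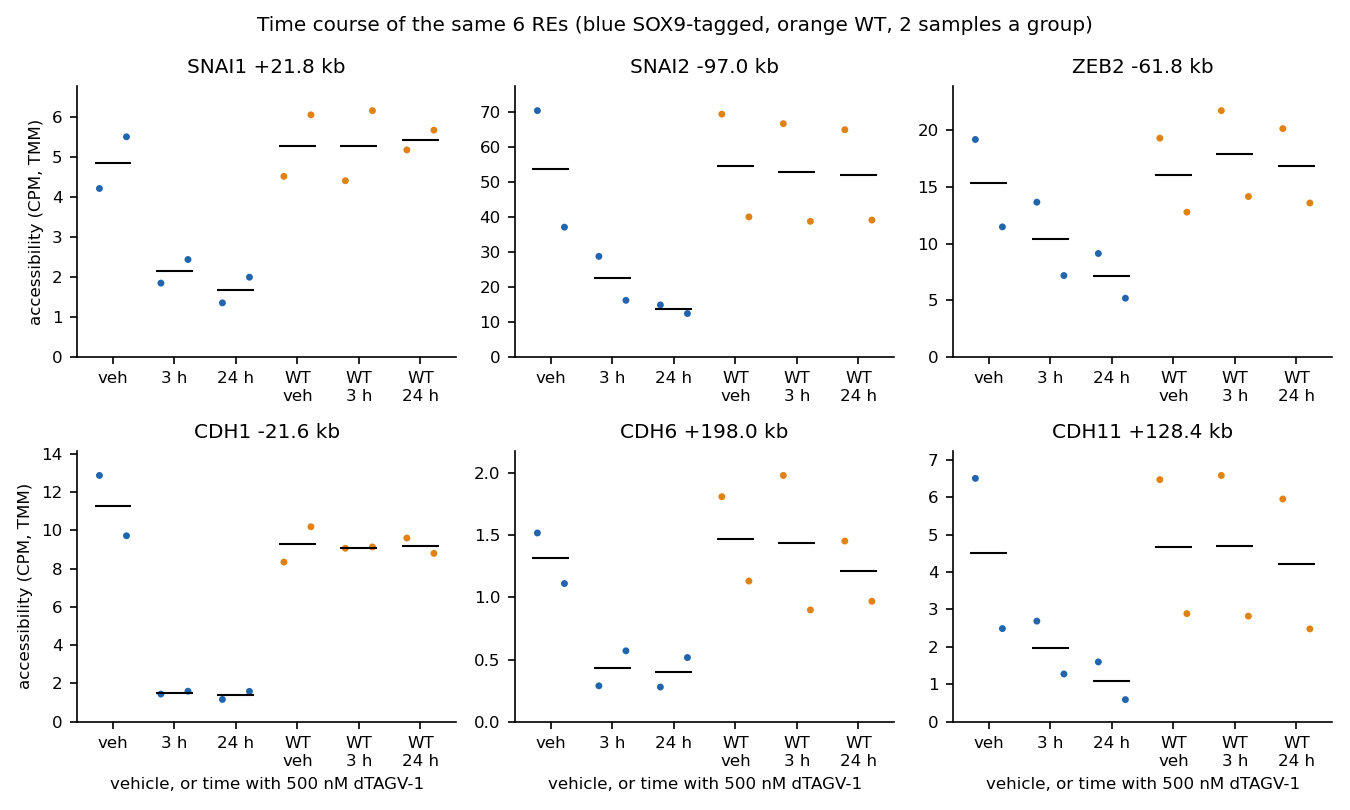
Accessibility in CPM (vertical, from 0) of 6 REs with vehicle for 24 h or after 3 h or 24 h of 500 nM dTAGV-1 (horizontal); points are the 2 samples of a group, blue for SOX9-tagged and orange for WT, and bars are means. Tagged samples fall from vehicle to 3 h in each panel, as from 12.87 and 9.72 to 1.44 and 1.59 CPM at CDH1 −21.6 kb, and WT samples show no call.

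Cells without the tag served as the control for the degrader. In WT cells 0 members were called by edgeR at 3 h (3 at an unadjusted p under 0.05, 0% of all REs called) and 0 at 24 h (6 at an unadjusted p under 0.05, 0% of all REs), and DESeq2 called 0 at both times. After 48 h edgeR called 1 WT member, SNAI1 +33.2 kb (0.303% of all REs). At an unadjusted p under 0.05 stood 25 of the 184 members there, 8 of them at SNAI1, and 12537 of all 151457 REs. Leaving out the R4 sample at 3 h gave 8 WT calls among the members, and leaving out the R5 sample at 3 h or at 24 h gave 1. The SOX9-tagged effect differed from the WT effect at 18 members after 3 h (5.2% of all REs), all lower (5.13%) and 0 higher (0.072%). After 24 h it differed at 22 (6.73%), 18 lower (6.28%) and 4 higher (0.45%), and after 48 h at 28 (10.8%), 20 lower (7.29%) and 8 higher (3.56%). These counts fell to 10 without the tagged R4 vehicle or tagged R4 3 h sample at 3 h, to 12 without the tagged R4 vehicle sample and 14 without the WT R5 vehicle sample at 24 h, and to 8 and 13 without a WT sample of R8 and of RSh at 48 h. Among the named REs the strongest differences at 48 h were at CDH11 +128.4 kb (−3.002 ± 0.24) and CDH1 −21.6 kb (−2.88 ± 0.24), where WT cells read 4.03 and 6.00 CPM at 0 nM and 5.93 and 6.38 CPM at 500 nM for the former.

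Summed over all REs of a locus, the changes were small. Per replicate, the log2 ratio of the summed CPM at 500 nM to that at 0 nM was −0.42 ± 0.14 (SD, n = 7) at SNAI2, −0.31 ± 0.06 at CDH1 and −0.27 ± 0.10 at ZEB2, below 0 in all 7 replicates of each. It was 0.20 ± 0.14 at ZEB1 and 0.10 ± 0.09 at CDH6, and at CDH11 0.08 ± 0.04, above 0 in all 7 replicates. At SNAI1, CDH2 and CDH7 the mean ratio was smaller than its SD, at −0.03 ± 0.13, −0.10 ± 0.18 and 0.02 ± 0.12. At CDH11 the sum rose although the locus held the second largest fall of a single RE. The most open REs weigh most in such a sum. At SNAI2 the median sum went from 167.4 to 128.4 CPM between 0 and 500 nM. Over the same groups the median of SNAI2 −97.0 kb alone went from 46.0 to 12.7 CPM.

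Other genes of the same programme were read by the same window rule, leaving out REs that are members. Around 12 mesenchymal genes and regulators, among them TWIST1, PRRX1, VIM and FN1, 44 of 290 REs were lower and 19 higher (21.7% called). Around 13 epithelial genes and regulators, 22 of 227 were lower and 16 higher (16.7%), and around 13 other cadherins 34 of 262 were lower and 35 higher (26.3%). Around 6 catenin genes, whose products link cadherins to actin, 17 of 205 were lower and 28 higher (22%). These shares stand beside the 24.1% of all REs, and their medians ran from −0.05 in the mesenchymal list to 0.08 in the catenin list. The window of CDH3 held 24 REs, 18 of which are members at CDH1. With those members included, 10 of the 24 were lower and 1 higher (45.8% called). CDH3 stands in both the epithelial and the other cadherin list, so its remaining REs count in both.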

How the data were processed

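ATAC-seq counts of 58 samples in 14 groups were used. The authors trimmed reads, aligned them to hg38 with bowtie2 2.4.1, removed duplicate, mitochondrial and poorly mapped reads with samtools 1.10, called summits with MACS2 2.2.7.1, kept those seen in at least 3 differentiation and line instances, widened and merged them, and deposited whole counts per RE and sample. Raw counts were tested here with edgeR 4.0.16 (R 4.3.3; quasi-likelihood F test, TMM, no count filter, differentiation batch as covariate, Benjamini-Hochberg over 151457 REs, threshold 0.05). CPM use TMM library sizes. Samples were grouped by title, and RE positions are 1-based.

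Groups were compared with 0 nM or vehicle of the same line, and the SOX9-tagged and WT effects by interaction. Replicates are separate differentiations or clones, and clones of 1 differentiation share it. Deviations from group means correlated within every same-named pair (lowest 0.205 in the dose series), so the names pair samples. DESeq2 1.42.0, other scaling and filtering, replicate blocks, left-out replicates, the S9CC13_R14 label exchange and windows from canonical starts were tried. The fits were tested on simulated data without batch or replicate effects and with changes larger than most of those called here. That test therefore does not cover small changes or the replicate structure of these data.

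Named REs were, at each locus, the RE at the canonical start and those with the most negative and most positive called change at 500 nM, with any member called at 1.6 or 0.5 nM or in WT cells, and the 5 most negative at 3 h. Members and lists were chosen with earlier results of these data known. Sequences are printed for 4 of the 24 named REs, and those of the others are not reported here.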

Additional observations from a re-analysis of the deposited data

Results flagged for a closer look

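Among 144 groups of 7 samples of the named REs, 2 held a sample far from the others, where chance gives about 1 in 20. At ZEB1 −0.1 kb, replicate S9CC13_R10 at 500 nM read 30.51 CPM against a group median of 17.97 CPM. At CDH11 +128.4 kb, replicate S9CC47_R8 at 0.5 nM read 6.186 CPM against a median of 2.032 CPM. Both values were kept.

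The effect of 500 nM differed between SOX9-tagged and WT cells, by edgeR's interaction test, at 18 members after 3 h, 22 after 24 h and 28 after 48 h. At 3 h the tagged minus WT log2 change was −1.27 at SNAI1 +21.8 kb, −1.5 at SNAI2 +21.7 kb, −1.28 at SNAI2 −97.0 kb, −2.2 at ZEB2 +149.7 kb, −0.824 at ZEB2 −61.8 kb, −2.94 at CDH1 −21.6 kb, −1.62 at CDH6 +198.0 kb and −1.22 at CDH11 +128.4 kb. All of these REs were lower in tagged cells.

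At 24 h it was −1.69 at SNAI1 +21.8 kb, 0.74 at SNAI1 +32.2 kb, 0.461 at SNAI1 +33.2 kb, −2.18 at SNAI2 +21.7 kb, −1.93 at SNAI2 −97.0 kb, −2.1 at ZEB2 +149.7 kb and −1.27 at ZEB2 −61.8 kb. At the cadherin loci it was −3.12 at CDH1 −21.6 kb, 0.988 at CDH6 −60.2 kb, −1.58 at CDH6 +198.0 kb and −1.95 at CDH11 +128.4 kb. The REs above 0 here are 3 of those that rose at 48 h.

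At 48 h it was −0.917 at SNAI1 +21.8 kb, 0.548 at SNAI1 +32.2 kb, 0.51 at SNAI1 +33.2 kb, −1.75 at SNAI2 +21.7 kb, −1.78 at SNAI2 −97.0 kb, −1.27 at ZEB2 +149.7 kb and −1.49 at ZEB2 −61.8 kb. It was −2.88 at CDH1 −21.6 kb, −1.32 at CDH6 +198.0 kb, 0.864 at CDH11 +224.9 kb and −3.0 at CDH11 +128.4 kb. The WT groups hold 2 samples each.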

How the results depend on the processing

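Counts of members called under the alternatives stayed within 1.5 times the reported count, except as follows. Without the batch term, so with no replicate block, 26 were called at 500 nM, 15 at 16 nM, 2 at 5 nM, 0 at 3 h and 2 at 24 h, and the tagged minus WT difference was called at 2, 3 and 4 members after 3, 24 and 48 h. With the replicate block, 57 were called at 16 nM and 1 at 1.6 nM, where DESeq2 also called 1. The block changed no other count by over 1.5 times. The 1 WT call at 48 h became 0 with DESeq2, without the batch term, pooled with tagged samples and without any 1 WT sample. Leaving out 1 sample gave 13 to 24 calls at 3 h, 22 to 50 at 24 h, 0 to 8 in WT at 3 h and 0 to 1 in WT at 24 h, and 10 to 27, 12 to 21 and 8 to 13 for the differences after 3, 24 and 48 h. At 3 and 24 h the lowest counts in tagged cells came without the R4 vehicle sample, and a lone sample is assumed there to vary like the others. The cause of these changes was not tested.

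Of 24 named REs under 312 alternative values, 293 kept direction and call, 12 lost the call and 7 changed sign. All sign changes were at uncalled promoters. CDH6 −0.0 kb ranged from −0.030 to 0.063 when 1 replicate was left out, CDH7 −0.1 kb from −0.096 to 0.061 and CDH11 −0.3 kb from −0.0079 to 0.038, and CDH11 −0.3 kb was −0.0058 with no replicate block. Low REs such as CDH7 +100.9 kb hold few counts, and their depth limits small changes. With windows around canonical starts alone, 164 REs were members and 48 were called at 500 nM.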

Other observations

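Single loci of related genes, read by the same windows and named after their values were seen, also leaned to one side at 500 nM and 48 h. At ETS1, a crest transcription factor gene, 12 of 48 REs were lower and 0 higher, and at SNAI3, the third Snail family gene, 9 of 29 were lower and 0 higher. At KRT8 and KRT18, neighbouring keratin genes, the windows each held 24 REs, with 7 lower and 0 higher. These windows hold largely the same REs, so they are not separate loci. The opposite lean was seen at PRRX1, with 0 of 25 lower and 6 higher, and at VIM, the gene of the intermediate filament vimentin, with 0 of 14 lower and 4 higher. The shares called were 25.0% at ETS1, 31.0% at SNAI3, 29.2% at KRT8 and KRT18, 24.0% at PRRX1 and 28.6% at VIM. Among all REs 24.1% were called, 13.9% lower and 10.2% higher. The counts by locus were not tested against those of other loci.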
